A study of Mus musculus with 4 samples.

Results

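The genes described are those that build fatty acids and those that burn them by beta oxidation, in cultured group 2 innate lymphoid cells (ILC2). The 35 genes were listed by function, and each was read from its brightest probe set across the 4 arrays, among those annotated to that gene alone. Of the 35, 34 had such a probe set, out of 18194 genes on the array, and Acsl1 was not analysed here. The list splits into 10 synthesis genes, 5 for uptake and activation, and 20 for the carnitine shuttle and oxidation.

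Affymetrix arrays measured RNA from 2 Ets1-deleted and 2 littermate control samples, all from C57BL/6 mice and with 1 array each. The protein made from Ets1 is an ETS-family regulator of transcription. The labels do not give the allele, the promoter of any Cre, the age or the number of mice, nor whether the samples of a group came from separate mice. In both groups ILC2 had been kept for 2 weeks on OP9-DL1 stromal cells, which display a Notch ligand, in the presence of the cytokines IL-7 and IL-33, and the ICOS-positive cells were sorted. The arrays addressed which genes depend on ETS1 in developing ILC2.

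Fatty acid synthesis runs in the cytosol: citrate is split to acetyl-CoA, carboxylated to malonyl-CoA and built into palmitate, which enzymes of the endoplasmic reticulum then lengthen and desaturate. A fatty acid from inside or outside the cell must be joined to coenzyme A before it is used, and it enters the mitochondrion as a carnitine ester. There each turn of beta oxidation takes it through a dehydrogenase, a hydratase, a second dehydrogenase and a thiolase, and the electrons pass through a flavoprotein to the respiratory chain. ILC2 are known to take up external lipids and to use fatty acids as fuel.

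Levels are the authors' RMA intensities, and differences are Ets1-deleted minus control on the log2 scale ± SE from limma, with n = 2 arrays per group throughout. A gene was tested where its mean intensity reached the median over all probe sets (97.44), and called where its p from limma, adjusted by Benjamini-Hochberg over all 10873 tested genes, was under 0.05. Array medians lay between 96.5 and 97.71, and Ets1 itself read 138 and 180.2 in the Ets1-deleted arrays, against 1272 and 1231 in the controls. Separate mice or cultures behind the arrays are not stated in the labels. The p-values therefore cover just the spread among these 4 samples, and that spread may be technical. Arrays of bulk RNA cannot tell fewer cells of a type from less RNA per cell.

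Of the 34 genes, 33 were bright enough to test, and all 33 were above the dim limit on all 4 arrays. In the Ets1-deleted arrays 11 of them rose, 1 fell and 21 did not pass. All tested genes together gave 26.7% called, 13.9% higher and 12.8% lower, so 11 higher of 33 (33.3%) stood above that background and 1 lower below it, with no test made of either. In 4 alternatives the share called came near the background, with 21.2% against 22.9% of all tested genes when each array's floor was subtracted. It was 24.2% without the first Ets1-deleted, first control or second control array, against 20.6% to 23.1% of all tested genes. The share called higher was 18.2% to 24.2% in those 4 fits, against 11% to 12.2% of all tested genes. The median difference of the 33 was 0.25, against -0.0037 over all tested genes. The groups did not overlap for 26 of the 33, 21 of them with the Ets1-deleted arrays on top and 5 with them below, where the shares over all tested genes were 62.6%, 30.9% and 31.7%. A difference of at least 2-fold with a call was seen in 2 of the 33, Fads2 and Hadh, against 4.64% of all tested genes. With each gene's own variance alone, 0 of the 33 passed in limma's linear model (13 of all tested genes, 2607 at an unadjusted p under 0.05), so the calls below depend on borrowing variance from other genes. With 2 arrays on each side, the smallest p an exact permutation test can give is 0.333.

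**Figure D1:**
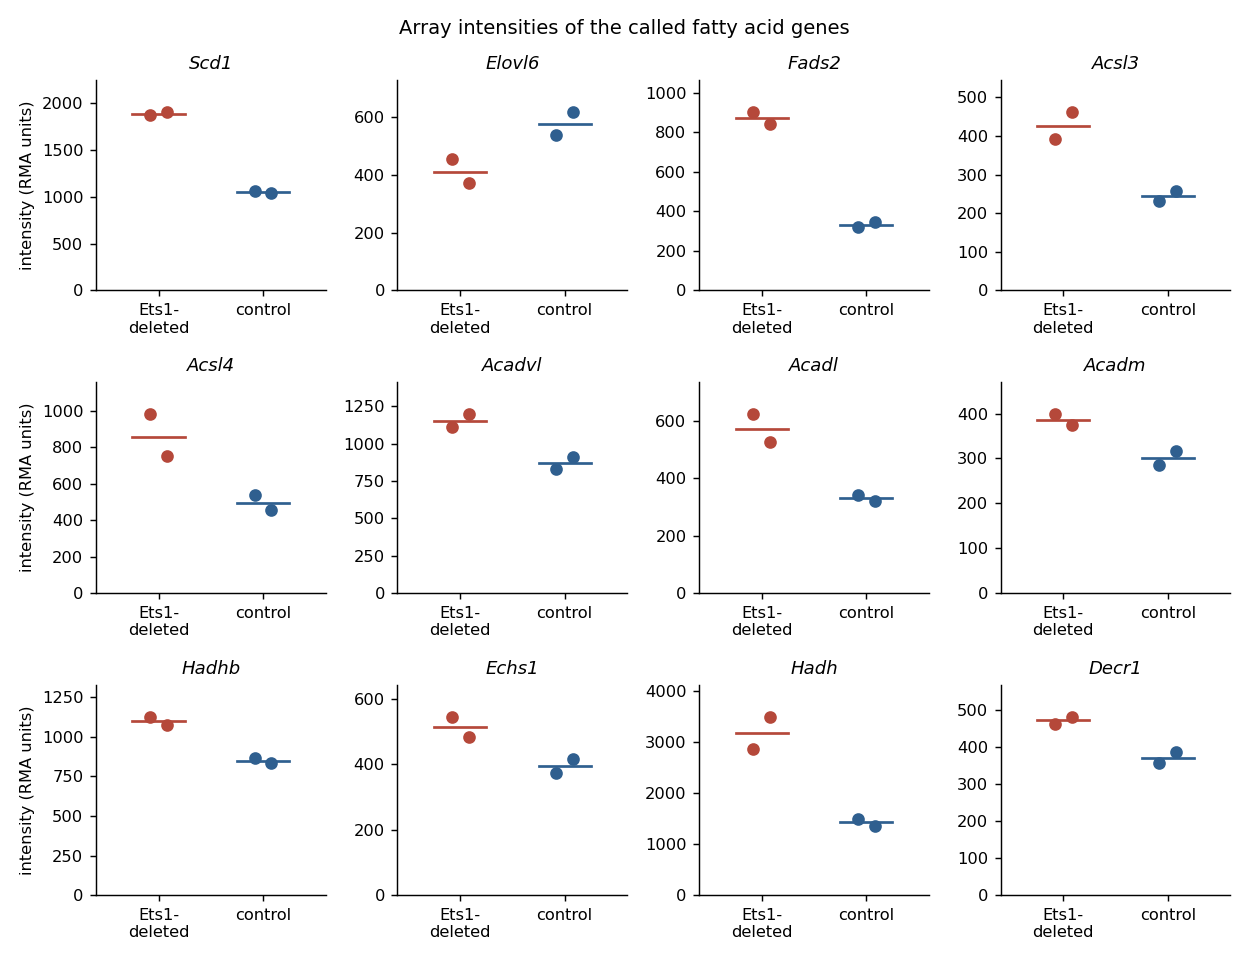
Array intensities (RMA units, linear axis from 0) of the 12 called genes, one panel per gene, with 1 point per array and a line at each group's mean on the log scale. Both Ets1-deleted points lie above both control points in 11 panels, and below them in the panel of Elovl6.

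Among the 10 synthesis genes 2 rose and 1 fell. That is 30% called and 20% higher, against 26.7% and 13.9% of all tested genes, with no test made. The genes that rose, Fads2 and Scd1, encode desaturases. The desaturase genes Fads1 and Scd2 and the genes for making palmitate did not pass. Fads2, which carries out the first desaturation of polyunsaturated fatty acids, read 903 and 843 in Ets1-deleted arrays, against 320.4 and 344 in controls. It rose by 1.39 ± 0.11 (2.63-fold; limma, adjusted p = 2.21e-06). Scd1, which puts the double bond into monounsaturated fatty acids, read 1871 and 1907 in Ets1-deleted arrays, against 1065 and 1041 in controls. It rose by 0.84 ± 0.11 (1.79-fold; limma, adjusted p = 0.000102). For both genes the 2 arrays of each group lay close together and the groups were far apart.

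Elovl6, which lengthens palmitate and its monounsaturated product, was the gene of the 33 that fell. It read 454 and 370.4 in Ets1-deleted arrays and 537 and 618 in controls, and fell by 0.49 ± 0.13 (limma, adjusted p = 0.0152). Its other bright probe sets differed by -0.22 and -0.35. The call was lost without the second Ets1-deleted array (-0.34, adjusted p = 0.0924 in limma) and without the second control array (-0.39, adjusted p = 0.0916). In such a fit the group left with 1 array has no spread of its own. Without either control array limma also gave every gene the same variance, so calls there rest on the size of the difference alone.

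The other 7 synthesis genes did not pass. Fasn, the synthase that builds palmitate, read 1131 and 1149.8 in Ets1-deleted arrays and 1276 and 1369 in controls. Its difference was -0.21, with a 95% interval from -0.45 to 0.03, and the groups did not overlap. Acly, which splits citrate, read 2669 and 2160.5 in Ets1-deleted arrays and 2745 and 2133 in controls. The 2 arrays within each group were further apart than the group means, and the difference was -0.011 (interval -0.33 to 0.31). Acaca, which makes malonyl-CoA, differed by 0.20 (interval -0.08 to 0.47; 0.033 without the second Ets1-deleted array), with 1 Ets1-deleted array at 504 and the remaining 3 arrays between 391 and 401. The elongase genes Elovl1, for very long chains, and Elovl5, for polyunsaturated ones, differed by 0.0085 and 0.07, and their groups overlapped. Both values come from probe sets that the array maker marks as possibly matching other transcripts. The unmarked bright probe set of Elovl1 gave 0.37, with 1139 and 954.5 in Ets1-deleted arrays and 859 and 758 in controls and no overlap, and the mean over probe sets did not pass (0.14, adjusted p = 0.244 in limma).

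Related desaturases did not all move alike. Fads1 and Fads2 are neighbours on chromosome 19, followed by Fads3. Fads1, which acts at a later desaturation step, read 623 and 611 in Ets1-deleted arrays and 586 and 680.4 in controls, so the groups overlapped. Its difference of -0.03 had an interval from -0.29 to 0.22, while that of Fads2 ran from 1.15 to 1.64. Fads3, a related gene, rose by 0.65 ± 0.11, with a second bright probe set at 0.20. The 2 dimmer bright probe sets of Fads2 gave smaller differences, 0.08 and 0.50, so its size depends on the probe set. With the mean over probe sets both stayed called, at 0.66 for Fads2 and 0.30 for Fads3. Subtracting the array floor gave 1.13 for Fads3. Scd2, a close relative of Scd1 with the same activity, read 3433 and 2884 in Ets1-deleted arrays and 2609 and 2676 in controls. Its tested difference was 0.25 (interval -0.01 to 0.51; 0.13 without the first Ets1-deleted array), its other probe sets gave 0.44 and 0.64, and it passed with the mean over probe sets (0.45, adjusted p = 0.0103 in limma).

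Of the 3 long-chain acyl-CoA synthetases tested, Acsl3 and Acsl4 rose and Acsl5 did not pass. That is 66.7% higher, against 13.9% of all tested genes, with no test made. Acsl3, found at the endoplasmic reticulum and on growing lipid droplets, read 393 and 463 in Ets1-deleted arrays, against 230.5 and 259 in controls. It rose by 0.80 ± 0.12 (1.75-fold; limma, adjusted p = 0.000413), and its second bright probe set gave 1.08. Acsl4, which prefers arachidonic acid and other polyunsaturated substrates, read 980.4 and 749.7 in Ets1-deleted arrays and 537 and 456 in controls. It rose by 0.79 ± 0.14 (1.73-fold; limma, adjusted p = 0.00138), and its other probe sets gave 1.16 and 1.26. For both genes the Ets1-deleted arrays were the higher pair on each probe set above the dim limit.

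Acsl5, a synthetase of mitochondria and endoplasmic reticulum, read 2400 and 2642 in Ets1-deleted arrays and 2465 and 2624 in controls. The groups overlapped, and the difference was -0.014 (interval -0.26 to 0.23). Cd36, a fatty acid transporter of the plasma membrane, stayed below the dim limit on every array, with 68.9 and 69.3 in Ets1-deleted arrays and 66.9 and 63 in controls, and was not tested. Its signal here does not separate a low level from none.

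**Figure D2:**
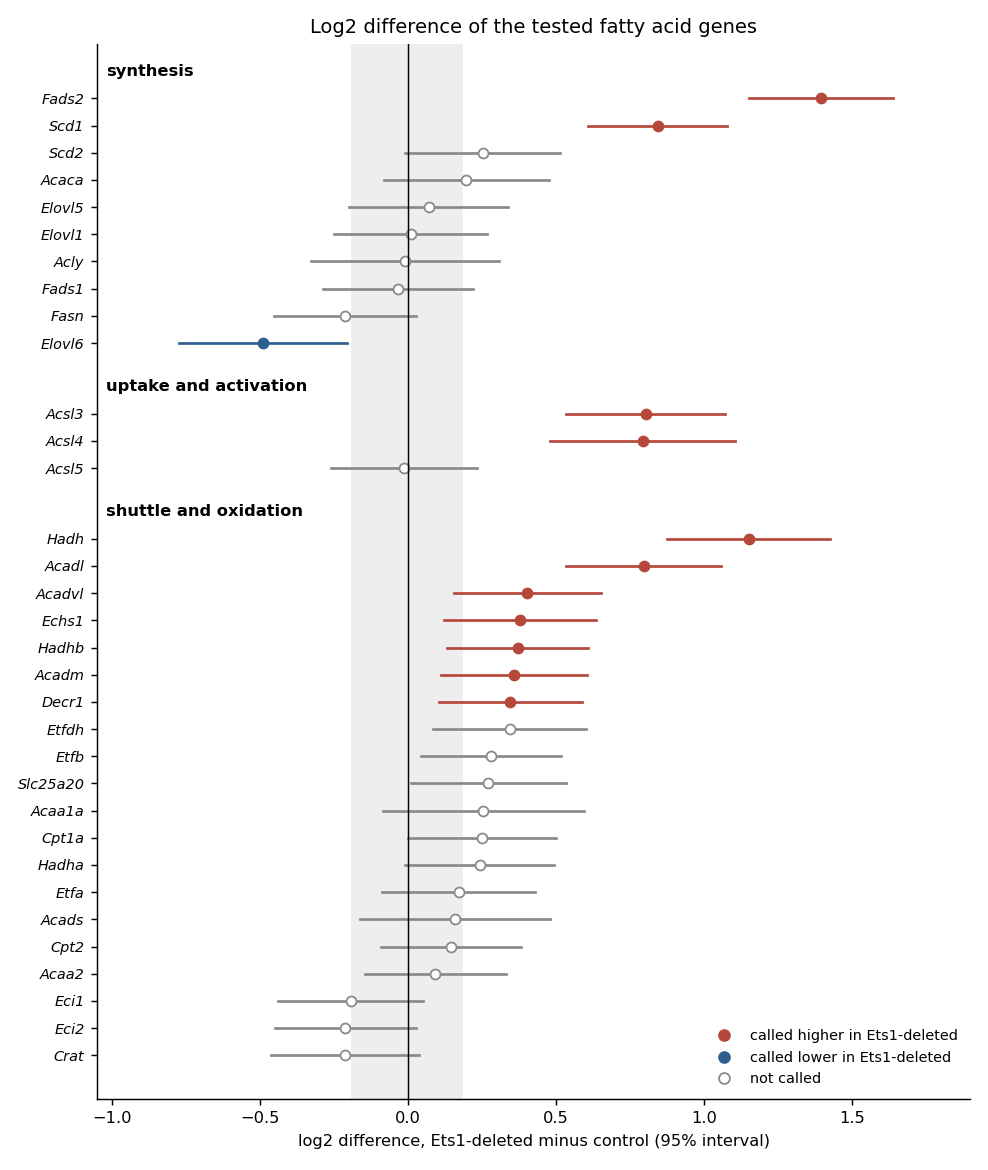
Log2 difference of the 33 tested genes, Ets1-deleted minus control, with 95% intervals from limma, grouped by function and ordered by size; filled points were called, and the grey band spans the middle quartiles of all tested genes (-0.19 to 0.18). The oxidation genes lie mostly to the right of 0, with Hadh and Acadl furthest out.

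The 20 genes of the carnitine shuttle and oxidation had 7 rises and 0 falls, and 17 of the 20 differences were above 0. Their median was 0.26. The share called higher was 35%, against 13.9% of all tested genes. Of the 16 oxidation genes, which include auxiliary, electron-transfer and peroxisomal enzymes, 7 rose (median 0.31), and of the 4 shuttle genes 0 (median 0.20). That difference was not tested.

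Hadh and Acadl rose most. Hadh, the dehydrogenase for the third step on medium and short chains, read 2868 and 3487 in Ets1-deleted arrays, against 1494 and 1359 in controls. It rose by 1.15 ± 0.13 (2.22-fold; limma, adjusted p = 2.89e-05). Its brightest probe set carries the same mark. An unmarked Hadh probe set gave 1.29, and the remaining one, also marked, 0.73. Acadl, the long-chain acyl-CoA dehydrogenase of the first step, read 623 and 526 in Ets1-deleted arrays, against 341 and 319 in controls. It rose by 0.80 ± 0.12 (1.74-fold; limma, adjusted p = 0.000381), and by 0.41 as a mean with its second probe set, which is dim. In both genes every Ets1-deleted array exceeded every control array by more than the gap within either group.

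The other first-step dehydrogenases are sorted by chain length. Acadvl, for very long chains, read 1107 and 1195 in Ets1-deleted arrays and 829.7 and 913 in controls, and rose by 0.40 ± 0.11 (adjusted p = 0.0206 in limma). Acadm, for medium chains, read 398 and 374 in Ets1-deleted arrays and 286 and 317 in controls, and rose by 0.36 ± 0.11 (adjusted p = 0.0349 in limma). Acads, for short chains, read 255 and 197 in Ets1-deleted arrays and 181 and 224 in controls. Its groups overlapped, with a difference of 0.16 (interval -0.16 to 0.48).

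The later steps showed smaller differences than Hadh. Echs1, the hydratase for short chains, read 545 and 483 in Ets1-deleted arrays and 374 and 417 in controls, and rose by 0.38 ± 0.12 (adjusted p = 0.0331 in limma). Hadhb, the thiolase subunit of the trifunctional protein, read 1125 and 1072 in Ets1-deleted arrays and 867 and 833 in controls, and rose by 0.37 ± 0.11 (adjusted p = 0.0252 in limma). A second Hadhb probe set gave the same 0.37, while the dimmest of its 3 bright probe sets went the other way (-0.32). The mean over probe sets ended the call (0.14, adjusted p = 0.244 in limma). Hadha, the partner subunit with the hydratase and dehydrogenase activities, read 1134 and 1124 in Ets1-deleted arrays and 891 and 1023 in controls. Its difference of 0.24 did not pass (interval -0.0097 to 0.49, which overlaps the interval of Hadhb from 0.13 to 0.61), and was 0.14 without the first control array. Acaa2, the mitochondrial thiolase for medium chains, differed by 0.09 (interval -0.15 to 0.33). Acaa1a, the peroxisomal thiolase, differed by 0.26, and its 4 arrays were 557 and 385 in Ets1-deleted and 401 and 376 in control samples.

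Unsaturated fatty acids need auxiliary enzymes, and these split. Decr1, the dienoyl-CoA reductase, read 462 and 482 in Ets1-deleted arrays and 358 and 386 in controls, and rose by 0.35 ± 0.11 (adjusted p = 0.0370 in limma). The mean over its probe sets ended that call (0.21, adjusted p = 0.0758 in limma). The isomerase genes Eci1 and Eci2 were on the other side of 0, at -0.19 and -0.21. Eci1 read 456 and 444 in Ets1-deleted arrays and 489 and 542 in controls, without overlap and without passing (adjusted p = 0.237 in limma).

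Electrons leave the cycle through the flavoprotein of Etfa and Etfb and its oxidoreductase, encoded by Etfdh. Etfdh read 610.5 and 563 in Ets1-deleted arrays and 497 and 429 in controls. With 0.34 ± 0.12 it missed the threshold narrowly (adjusted p = 0.0502 in limma) and passed under 6 alternatives, among them without the second Ets1-deleted array (0.40, adjusted p = 0.0492) and without the first control array (0.45, adjusted p = 0.0406). As a mean with its second probe set, which is dim (-0.09), Etfdh differed by 0.13 and did not pass. Etfb read 2704 and 2610.4 in Ets1-deleted arrays and 2161 and 2213 in controls, a difference of 0.28 (adjusted p = 0.0772 in limma). Etfa differed by 0.17 (interval -0.09 to 0.43; 0.063 without the second Ets1-deleted array).

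Of the 4 shuttle genes, 0 passed. Cpt1a, which forms the carnitine ester and is the gate of beta oxidation, read 961 and 882 in Ets1-deleted arrays and 816 and 735 in controls. Its difference was 0.25 (interval -0.00072 to 0.50). Slc25a20, which carries the ester across the inner membrane, differed by 0.27, and Cpt2, which frees the acyl group inside, by 0.15. Crat, the acetyltransferase for short acyl groups, read 149 and 135 in Ets1-deleted arrays and 172 and 157 in controls, a difference of -0.21 (adjusted p = 0.199 in limma). The groups did not overlap for these 4 genes, with Crat lying the other way, and neither did they for 62.6% of all tested genes. With the mean over probe sets, Cpt1a (0.34, adjusted p = 0.0466), Slc25a20 (0.25, adjusted p = 0.0484) and Etfb (0.28, adjusted p = 0.0254) passed in limma.

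The 7 oxidation calls were not equally firm. In the fits without a control array, all genes shared the same variance, so a call there reflects only the size of the difference. Hadh and Acadl passed without any 1 array, while the 5 with differences of 0.35 to 0.40 each lost the call in at least 2 of the 4 fits that left out an array. Without the first control array the difference was 0.33 for Acadvl, 0.28 for Acadm, 0.40 for Hadhb, 0.30 for Echs1 and 0.29 for Decr1, with adjusted p between 0.078 and 0.257 in limma. Without the first Ets1-deleted array Acadm (0.31), Hadhb (0.34), Echs1 (0.29) and Decr1 (0.37) missed, at adjusted p of 0.0605 to 0.155. Without the second control array Acadm (0.43), Hadhb (0.34) and Decr1 (0.40) missed, at 0.0528 to 0.155. Without the second Ets1-deleted array Acadvl (0.35, adjusted p = 0.0802 in limma) and Decr1 (0.32, adjusted p = 0.109) missed. The direction of these 5 genes was the same in each of these fits. Subtracting each array's floor also ended the 5 calls, at larger differences (0.39 to 0.43, adjusted p of 0.0613 to 0.071 in limma). The count of shuttle and oxidation genes called was 3 to 7 with 1 array left out. Outside oxidation, Scd1, Fads2, Acsl3 and Acsl4 passed in every fit that left out an array.

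**Figure D3:**
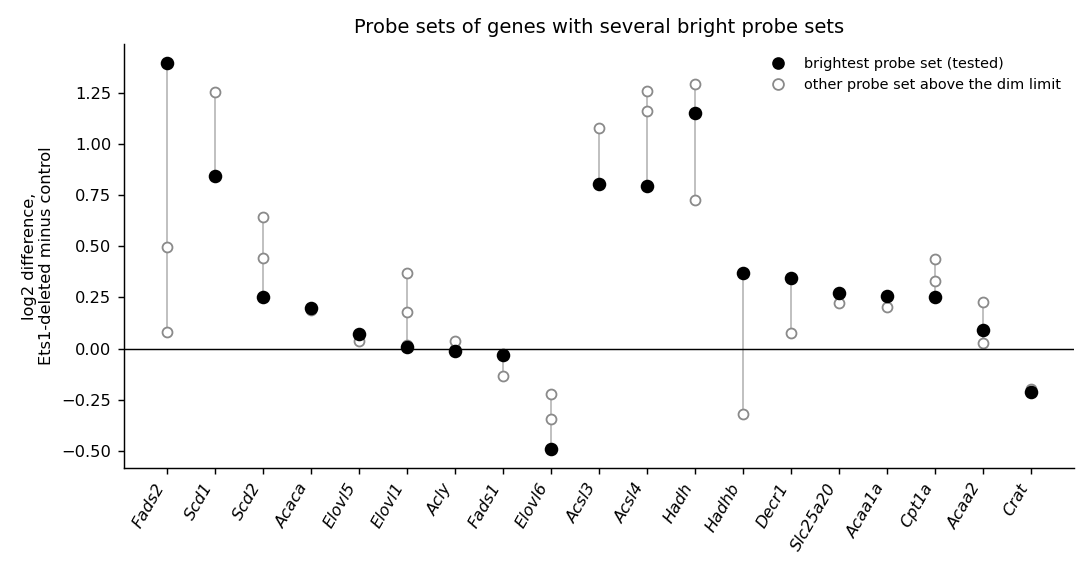
Log2 difference, Ets1-deleted minus control, of every probe set above the dim limit for the 19 genes that have several; the black point is the brightest probe set, on which the tests rest. Fads2 and Hadhb spread widest, and Hadhb and Acly have probe sets on both sides of 0.

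The promoters of 4 oxidation genes show where the ETS-type letters searched for here do and do not lie. Hadh and Acadl had the largest rises, Hadhb shares its promoter region with a partner gene, and Etfdh, which was not called, holds the core letters CCGGAA. The windows run from 250 bases before to 50 after the start in RefSeq, build GRCm38.p6, and are printed 5′ to 3′ on the gene's strand. Capitals mark, on either strand, every match to this core and to the letters GGAA when the next base is an A or a T. A window without capitals has no match to either pattern. GGAA followed by G or C was marked only within CCGGAA, so lower case does not show that GGAA is absent. In Hadh such unmarked letters, GGAAG on the other strand, directly follow the marked stretch. The marks are therefore not a full map of ETS-type letters.
Hadh, chr3:131272052-131272351, minus strand: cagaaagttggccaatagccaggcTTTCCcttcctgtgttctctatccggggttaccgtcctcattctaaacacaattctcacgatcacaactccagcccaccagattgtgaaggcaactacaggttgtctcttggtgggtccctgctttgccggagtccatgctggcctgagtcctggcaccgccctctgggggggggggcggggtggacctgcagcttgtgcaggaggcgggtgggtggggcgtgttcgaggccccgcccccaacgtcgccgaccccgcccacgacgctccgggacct
Acadl, chr1:66863260-66863559, minus strand: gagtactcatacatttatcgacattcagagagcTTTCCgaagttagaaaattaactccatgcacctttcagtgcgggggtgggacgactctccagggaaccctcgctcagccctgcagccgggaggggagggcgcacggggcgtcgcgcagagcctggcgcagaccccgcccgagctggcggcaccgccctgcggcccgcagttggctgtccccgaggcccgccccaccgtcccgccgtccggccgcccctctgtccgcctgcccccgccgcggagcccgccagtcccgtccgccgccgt
Hadhb, chr5:30155003-30155302, plus strand: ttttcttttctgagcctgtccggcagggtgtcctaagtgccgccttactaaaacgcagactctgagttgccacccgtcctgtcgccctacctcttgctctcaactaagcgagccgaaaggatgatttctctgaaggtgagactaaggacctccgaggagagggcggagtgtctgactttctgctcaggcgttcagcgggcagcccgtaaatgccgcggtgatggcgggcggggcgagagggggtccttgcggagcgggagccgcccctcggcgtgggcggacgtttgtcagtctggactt
Etfdh, chr3:79628718-79629017, minus strand: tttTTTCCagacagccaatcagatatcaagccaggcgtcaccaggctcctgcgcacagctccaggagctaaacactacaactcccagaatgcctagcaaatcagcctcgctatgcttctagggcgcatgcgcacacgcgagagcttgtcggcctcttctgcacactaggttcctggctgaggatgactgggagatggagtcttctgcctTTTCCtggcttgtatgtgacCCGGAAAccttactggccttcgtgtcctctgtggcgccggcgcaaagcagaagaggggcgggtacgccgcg

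Of the 33 tested genes, 27 had a promoter in the table, and 5 of them held CCGGAA, which can overlap the shorter motif. Among all 32851 promoters of that length the share was 14.9%. The holders were Acsl4, which rose, and Acads, Cpt2, Etfdh and Slc25a20, which did not pass, so 1 of the 10 called genes with a promoter was among them. In Etfdh the match began 21 bases before the start. The shorter motif was in 19 of the 27, against 75.5% of all promoters, and GGAA followed by G or C was not counted in it. The E-box CACGTG was in 1 of the 27 (Elovl5, 7.15% of all). The sterol element TCACNCCAC was in 0 (1.24% of all), and so was the repeat AGGTCANAGGTCA that PPAR factors bind (0.0396% of all). Both strands were searched, and a match is a string of letters and not a shown site. Hadha and Hadhb lie head to head on chromosome 5, their starts 273 bases apart, and their windows overlap by 228 bases. Scd1, Scd2, Fads1, Crat, Acaa2 and Decr1 had no entry.

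Further genes of fatty acid metabolism, listed by function, were measured on the same arrays. Of 22 other synthesis and elongation genes, 15 were tested, 7 rose and 0 fell (median 0.12). The 7 are 46.7% of those tested, against 13.9% called higher among all tested genes, and no test was made. Hacd1, a dehydratase of the elongation cycle, read 513 and 545 in Ets1-deleted arrays, against 267 and 242 in controls, and rose by 1.05 ± 0.11 (limma, adjusted p = 2.47e-05). Its relatives Hacd2 and Hacd3, named after their values were seen, differed by -0.16 and 0.06 and did not pass. Of the reductases in the same cycle, Hsd17b12, which acts before the dehydratase, rose by 0.49 ± 0.13 and Tecr, which acts after it, by 0.47 ± 0.12. Tecr missed without the first Ets1-deleted array (0.40, adjusted p = 0.0509 in limma) or the second control array (0.40, adjusted p = 0.0835), and Hsd17b12 without the second Ets1-deleted array (0.30, adjusted p = 0.128). Acss2, which makes acetyl-CoA from acetate, rose by 0.55, and the elongase gene Elovl7 by 0.54 (1.24 with the array floor subtracted). Mid1ip1, an activator of acetyl-CoA carboxylase, rose by 0.41, and missed without the first Ets1-deleted (0.28), first control (0.40) or second control array (0.42), at adjusted p of 0.0621 to 0.159 in limma. Acacb, the mitochondrial carboxylase, read 92 and 105 in Ets1-deleted arrays and 102 and 104 in controls, close to the dim limit.

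Of 16 other uptake, activation and binding genes, 9 were tested, 3 rose and 0 fell (median 0.13). That is 33.3% higher, against 13.9% of all tested genes, with no test made. Vldlr, a lipoprotein receptor, read 294 and 355 in Ets1-deleted arrays, against 63.3 and 62.7 in controls, and rose by 2.36 ± 0.12 (limma, adjusted p = 6.21e-08). That probe set is marked as possibly matching other transcripts and is the only 1 of 6 above the dim limit. Averaging the Vldlr probe sets gave 1.05, and subtracting the array floor gave 4.06. Slc27a1, a fatty acid transport protein, rose by 0.83 and Fabp4, a fatty acid binding protein, by 0.76. A second bright Slc27a1 probe set gave 0.32, and subtracting the array floor gave 1.39. A second bright Fabp4 probe set gave 0.13, and averaging its probe sets ended the call (0.24, adjusted p = 0.0539 in limma). Of the higher calls in these lists, Vldlr and Elovl7 had controls below the dim limit and could be tested only because the Ets1-deleted arrays were brighter.

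Of 28 other oxidation genes, 18 were tested, 4 rose and 0 fell (median 0.06), a share of 22.2%. Among all tested genes 13.9% were called higher and 26.7% were called in either direction. Hsd17b10, a dehydrogenase that also acts on branched chains, rose by 0.61 ± 0.11 and Acat1, the thiolase that ends ketone and isoleucine breakdown, by 0.54 ± 0.11. Ech1, an isomerase for dienoyl-CoA, rose by 0.54 and missed without the first control array (0.41, adjusted p = 0.0671 in limma). Acadsb, for short branched chains, rose by 0.45. The median of this list lay nearer 0 than that of the 20 shuttle and oxidation genes, with no test of that difference.

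Of 22 regulators, 16 were tested, 6 rose and 2 fell (median 0.20). That is 50% called and 37.5% higher, against 26.7% and 13.9% of all tested genes, with no test made. Pparg, the lipid-sensing nuclear receptor that drives uptake and storage genes, read 737 and 666 in Ets1-deleted arrays, against 101 and 116 in controls, and rose by 2.69 ± 0.12 (limma, adjusted p = 2.17e-08). Rxra, which encodes a partner of PPAR receptors, read 248 and 269 in Ets1-deleted arrays and 529.5 and 476 in controls, and fell by 0.96 ± 0.11 (adjusted p = 6.01e-05 in limma), with a second bright probe set at -0.60 and -0.56 as the mean over probe sets. Ppard, a PPAR that drives oxidation genes, rose by 0.54 ± 0.11 in these arrays. Ppargc1a, a coactivator of PPAR receptors, stayed below the dim limit and was not tested.

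Srebf1, whose product drives fatty acid synthesis genes, read 972 and 938 in Ets1-deleted arrays, against 614 and 689 in controls, and rose by 0.55 ± 0.11 (limma, adjusted p = 0.00324). Srebf2, the sterol counterpart, rose by 0.57 ± 0.14, with a second bright probe set at 0.18 and 0.38 as the mean over probe sets (adjusted p = 0.042 in limma). It missed without the first Ets1-deleted array (0.35, adjusted p = 0.0769 in limma). Insig1, which holds both precursors in the membrane, differed by 0.21 (interval -0.08 to 0.50). Its relative Insig2 rose by 0.34, with a second bright probe set at -0.13 and 0.095 as the mean over probe sets (adjusted p = 0.454 in limma). It also missed without the first Ets1-deleted (0.29), first control (0.35) or second control array (0.33), at adjusted p of 0.141 to 0.179 in limma. Prkab2, a subunit of the AMP-activated kinase, rose by 0.34 and missed without any 1 array (0.30 to 0.38). Sirt3, a mitochondrial deacetylase, fell by 0.38 and missed without the second Ets1-deleted array (-0.35) or either control array (-0.36 and -0.39), at adjusted p of 0.0705 to 0.119 in limma.

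**Figure D4:**
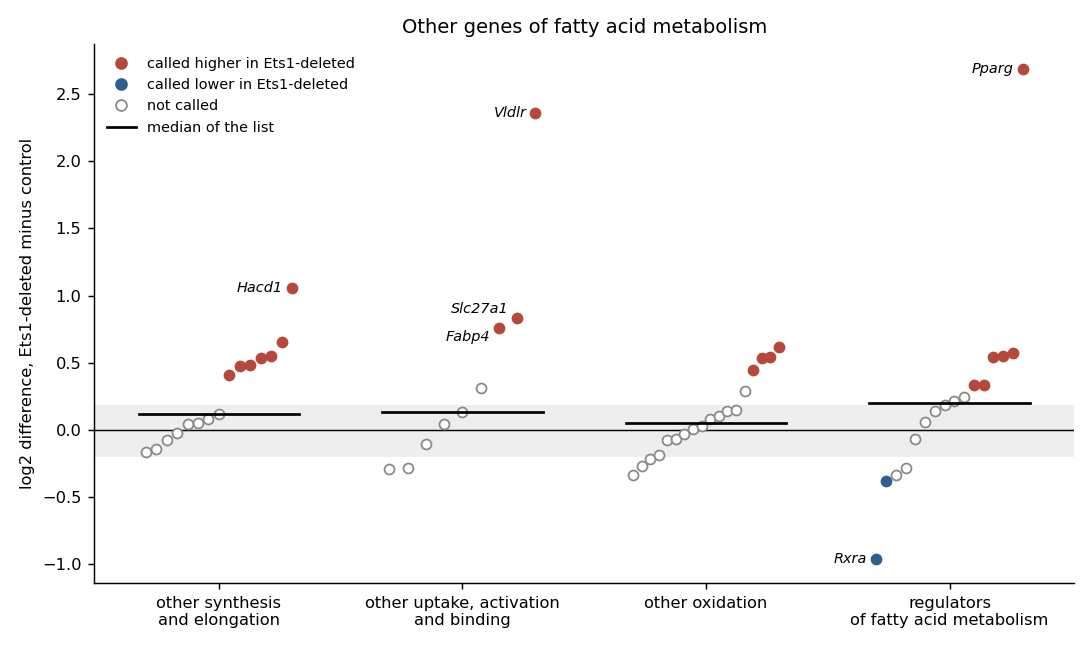
Log2 difference, Ets1-deleted minus control, of 58 further tested genes of fatty acid metabolism in 4 lists, ordered by size within each list; filled points were called, black lines are list medians and the grey band spans the middle quartiles of all tested genes. Pparg and Vldlr stand highest and Rxra lowest.

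Markers of other cells moved in the same arrays, and their part in these results was not tested. Calls in either direction covered 26.7% of all tested genes. The share was 77.8% of tested mast cell and basophil markers, 90.9% of myeloid, 100% of T cell and 72.7% of ILC2 markers. For stromal and fibroblast markers it was 36.4%, for adipocyte markers 33.3% and for B cell markers 0%. Of 13 mast cell and basophil markers, 4 were dim and 7 of 9 tested rose, led by Cpa3 (1497 and 1261 in Ets1-deleted arrays, 85.9 and 78.3 in controls). Mcpt8 was on the other side of 0 (1097 and 1193 in Ets1-deleted arrays, 1337 and 1385 in controls). It did not pass, and neither did Tpsb2 (0.06). The summed intensity of the 13 was 4222 to 4382 in Ets1-deleted and 2617 to 2631 in control arrays. Cpa3 alone makes up much of that gap. Myeloid markers summed to 5503 to 5715 in Ets1-deleted and 4958 to 5066 in control arrays, with 9 of 11 tested higher and 1 lower. Of 8 T cell markers, the 4 tested, which encode chains of the CD3 complex, rose. Cd247 did so on its brightest probe set, while its 4 bright probe sets ranged from -0.21 to 3.11. The 4 dim markers, Cd4, Cd8a, Cd8b1 and Cd5, read 65.7 to 97.4 over both groups. The list summed to 5400.2 to 5479 in Ets1-deleted and 2483 to 2506 in control arrays. OP9 stroma can turn into fat cells, so adipocyte markers were read as well. Of 9 measured, 6 were below the dim limit, including Adipoq (55.2 and 59.1 in Ets1-deleted arrays, 59.2 and 56.6 in controls), and 1 of the 3 tested, Fabp4, rose. The sums were 1097 to 1230 in Ets1-deleted and 926 to 975 in control arrays. That gap is about the size of the gap in Fabp4 alone (441 and 551 in Ets1-deleted arrays, 302 and 282 in controls). The other 2 tested adipocyte markers did not pass. Of 11 tested stromal and fibroblast markers, 1 rose (Timp3) and 3 fell, with a median of -0.26. The sums were 3656 to 3691 in Ets1-deleted and 3429.8 to 3647 in control arrays, and without Timp3 they were 2778 to 2941 in Ets1-deleted and 3278 to 3520.3 in control arrays. B cell markers, 5 of 6 of them below the dim limit, summed to 474 to 489 in Ets1-deleted and 475 to 492 in control arrays. Of 11 ILC2 markers, which were all bright enough to test, 5 rose and 3 fell, with sums of 22891 to 24261 in Ets1-deleted and 20054 to 21033 in control arrays. Among the higher markers, Cpa3 and Hdc of mast cells, Adgre1 and Spi1 of myeloid cells and Cd3e and Cd247 of T cells had at least 1 control array below the dim limit, so such counts are a description.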

How the data were processed

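Sorted cells gave total RNA that was amplified, labelled with biotin and put on Affymetrix arrays, per the labels' protocols. The deposited intensity values were made by the authors with RMA, per the submitters' processing notes; no software version is given there. The values run from 39.5 to 23291 and were read as linear, an inference from the values, and turned into log2. RMA levels off near the floor, which understates differences of dim genes.

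Gene symbols came from the platform annotation. Of its 45101 probe sets, 34958 had 1 symbol, 932 had several and 9211 were not listed. The IDs of 34754 matched RefSeq. The brightest probe set per gene had the highest mean log2 value over the 4 arrays. For Acly, Elovl1, Elovl5, Cpt1a, Hadh and Acaa1a it is one that the array maker marks as possibly matching other transcripts. The same holds for Vldlr, Elovl7, Acadsb and Hsd17b10 among the further genes named. The filter at the 50th percentile of all probe sets (97.44) left 10873 genes.

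The model was fitted in limma 3.58.1 (R 4.3.3; lmFit, then eBayes), two-sided, with 2 residual and 9.75 prior degrees of freedom. It was tested on simulated data. The alternatives were another normalization, other filters, probe set summaries, variance models and a 1.5-fold limit, a replicate block, a subtracted array floor (5th percentile, floor of 16) and leaving out each array. The genes, lists and tests were chosen with earlier results of these data known. All 35 listed genes could be named, and of the further pathway genes those past the threshold and Srebf1, Insig1, Pparg, Ppargc1a and Acacb; marker genes named were chosen after their values were seen. The number of arrays limits the precision.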

Additional observations from a re-analysis of the deposited data

How the results depend on the processing

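Of the 12 called genes, 6 (Scd1, Fads2, Acsl3, Acsl4, Acadl and Hadh) passed in all alternatives except ordinary variances, where 0 passed. With ordinary variances 13 of all tested genes passed, 7 higher and 6 lower, and 0 synthesis, 0 activation and 0 oxidation genes; that setting leaves 2 degrees of freedom per gene. A limit of 1.5-fold left 6 of the listed genes, 6 higher and 0 lower, with 2 in oxidation, and 1349 of all genes, 768 higher and 581 lower. With the array floor subtracted 7 passed (21.2%, against 22.9% of all genes), 6 higher, with 2 in oxidation, and the calls of Acadvl, Acadm, Hadhb, Echs1, Decr1, Mid1ip1, Hsd17b12 and Insig2 were lost; the cause was not tested. With 1 array left out, 8 to 11 listed genes were called (24.2% to 33.3%, against 20.6% to 25.2% of all genes), 7 to 11 higher and 0 to 1 lower, and 3 to 7 of the shuttle and oxidation genes were called. The mean over probe sets gave 14 calls, 10 of them shared with the reported 12.

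Differences near 0 changed sign. Acly was 0.0046 with median centring and 0.0025 with the mean over probe sets, Elovl1 -0.028 with repeated quantile normalization, and Acsl5 0.0012 with median centring. With 1 array left out, Acly ranged from -0.19 to 0.17, Elovl1 from -0.11 to 0.12, Elovl5 from -0.045 to 0.18, Fads1 from -0.14 to 0.074, Acsl5 from -0.084 to 0.055, Acads from -0.026 to 0.34, Acaa1a from -0.012 to 0.52 and Acacb from -0.17 to 0.024. Only Acaa1a passed in one of these fits (without the second Ets1-deleted array, adjusted p = 0.00983 in limma).

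The labels number samples 1 and 2 in both groups but do not say that a number marks a shared litter or day. Deviations of same-numbered arrays from their group means correlated at 0.167 over 10873 genes. With the replicate block 13 listed genes were called, the 12 reported and Etfdh (0.34, adjusted p = 0.0296 in limma), and 3252 of all genes. Scaling moved the median of all genes by less than 0.1.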
